A study of Mus musculus with 6 samples.

Results

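The dual-specificity MAP kinase phosphatases are the enzymes that switch off mitogen-activated protein (MAP) kinases, and 10 of their genes are described here in cultured mouse spermatogonial stem cells given captopril. The members are Dusp1, Dusp2, Dusp3, Dusp4, Dusp5, Dusp6, Dusp7, Dusp8, Dusp10 and Dusp16, out of 20284 named genes on the array. Their probes were found by name, through the transcript accession of each array probe, and not by any measured value. The members themselves were chosen with earlier results of these data known. All 10 genes had at least 1 probe and together they had 13. A probe entered the tests when its signal was well above background, by the scanner program's flag, on at least 3 arrays, and 11 of the 13 probes in 9 of the 10 genes passed. Dusp8 did not.

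Spermatogonial stem cells are the germline stem cells of the testis, and here they were grown from dissociated mouse testis, passaged and then moved to mouse embryonic fibroblast (MEF) feeder cells, with no genotype, strain or age in the labels. The treated cultures received 0.01 M captopril, an inhibitor of angiotensin-converting enzyme (ACE), for 24 h, and the control cultures received sterile water, for which the labels repeat the same molarity. Each group has 3 single-colour Agilent arrays, numbered 2, 3 and 4, which the labels describe as independent experiments, so that each array is 1 RNA sample and p-values measure the spread between these samples. The series title names the MAP kinase pathway, and the comparison asks whether transcripts of the phosphatases of that pathway differ with captopril.

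A MAP kinase is active only while a threonine and a tyrosine in its activation loop are both phosphorylated, and a dual-specificity phosphatase removes both phosphates. Dusp1, Dusp2, Dusp4 and Dusp5 encode nuclear enzymes whose transcription is itself induced by growth factors and stress, Dusp6 and Dusp7 encode cytoplasmic enzymes that prefer the extracellular signal-regulated kinases (ERK), and Dusp8, Dusp10 and Dusp16 encode enzymes that prefer the stress kinases JNK and p38. Dusp3 encodes a small enzyme without the kinase-binding domain of the others. Several of these genes are ERK targets, so that their transcripts take part in feedback on the pathway.

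No link between promoter sequence and array values was tested. The promoters of 3 inducible nuclear phosphatases are shown, chosen after their values on the arrays were seen. Each is the 250 bases before the annotated start in the RefSeq table of GRCm38.p6, 5′ to 3′ on the gene's strand. Capitals mark the cAMP response element TGACGTCA and its half-site TGACG, the EGR site GCGGGGGCG, the E-box CACGTG and the CArG box, the site of serum response factor, each on either strand.
Dusp1, chr17:26508473-26508722, strand -: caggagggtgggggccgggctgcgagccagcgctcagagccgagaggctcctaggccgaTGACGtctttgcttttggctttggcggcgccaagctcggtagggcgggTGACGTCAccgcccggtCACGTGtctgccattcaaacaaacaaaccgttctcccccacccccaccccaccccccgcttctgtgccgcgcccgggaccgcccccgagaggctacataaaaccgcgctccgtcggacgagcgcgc
Dusp2, chr2:127335909-127336158, strand +: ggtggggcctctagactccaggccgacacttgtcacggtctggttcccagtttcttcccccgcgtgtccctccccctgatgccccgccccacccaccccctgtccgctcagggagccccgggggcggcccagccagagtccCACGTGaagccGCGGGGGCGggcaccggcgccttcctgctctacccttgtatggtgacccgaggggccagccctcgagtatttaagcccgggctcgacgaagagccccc
Dusp5, chr19:53528895-53529144, strand +: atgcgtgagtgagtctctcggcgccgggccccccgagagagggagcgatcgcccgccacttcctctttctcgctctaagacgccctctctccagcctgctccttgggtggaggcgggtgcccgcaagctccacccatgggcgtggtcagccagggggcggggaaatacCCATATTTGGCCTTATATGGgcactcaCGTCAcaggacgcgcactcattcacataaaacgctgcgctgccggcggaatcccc

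The Dusp2 window holds an EGR site between 98 and 90 bases before the start and an E-box, and no cAMP response element. Dusp1 holds a full cAMP response element, a separate half-site and an E-box. Dusp5 holds a pair of adjoining CArG boxes between 82 and 63 bases before the start and 1 half-site. Among the 9 members with a promoter in the table (all but Dusp4), the EGR site occurred in Dusp2 alone and the CArG box in Dusp5 alone, and the full element in Dusp1 and Dusp8. Of 32851 promoter windows of this length in the table, 2.57% held the EGR site, 1.47% a CArG box, 1.55% the full cAMP response element, 6.02% the E-box and 17.8% the half-site, which lies within every full element. The GC box GGGCGG, not capitalised here, occurred in 7 of the 9 members and in 32.7% of all windows. The TATA box TATAAA occurred in none of the 9 and in 12.4% of windows. A match describes letters and was not tested as a binding site.

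The share of spots well above background ran from 52.2% to 60.5% over the arrays. Levels below are listed in the order of replicates 2, 3 and 4 of each group. Water replicate 3 stood apart: its correlation with the other arrays over 32426 probes was 0.878 to 0.893, against 0.970 to 0.991 among the other 5. Its 75th percentile of signal was 1875 and that of captopril replicate 4 was 1885, against 2780 to 3424 on the other arrays. On water replicate 3, 69.3% of genes stood above the mean of water replicates 2 and 4, and 753 genes (5.07%) were below background on that array alone. Fold changes are therefore given over all 6 arrays and without water replicate 3. All 15 germ cell markers were measured, and so were all 13 fibroblast markers. Of the leukocyte markers 11 of 12 on the array were measured, of Sertoli cell markers 5 of 9 (not Amh, Cldn11, Fshr or Gata4), of smooth muscle markers 5 of 5, and of Leydig cell markers Star alone of 5.

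Dusp2 was the member that stood lower on every captopril array than on every water array, without passing the test, while most of the other members stood slightly higher once water replicate 3 was left out. A log2 fold change is captopril minus water here. Its median over the 9 measured members was 0.13 over 6 arrays, and 6 values were positive, beside a median of −0.03 and 46.7% positive values over all 14860 genes tested. Without water replicate 3 the median was 0.21, with 7 positive values, beside 0.07 and 58.5% over all genes. By limma with Benjamini-Hochberg adjustment over all genes, 0 of the 9 members passed an adjusted p of 0.05 in either comparison, where 0% of all genes passed over 6 arrays and 0.619% without water replicate 3. In the fit across all probes 0 of the 11 member probes passed as well, where 0% of probes passed over 6 arrays and 0.281% over 5. Before adjustment, 1 of 9 members had a p under 0.05 over 6 arrays (8.24% of all genes) and 3 of 9 over 5 arrays (19.1%).

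**Figure D1:**
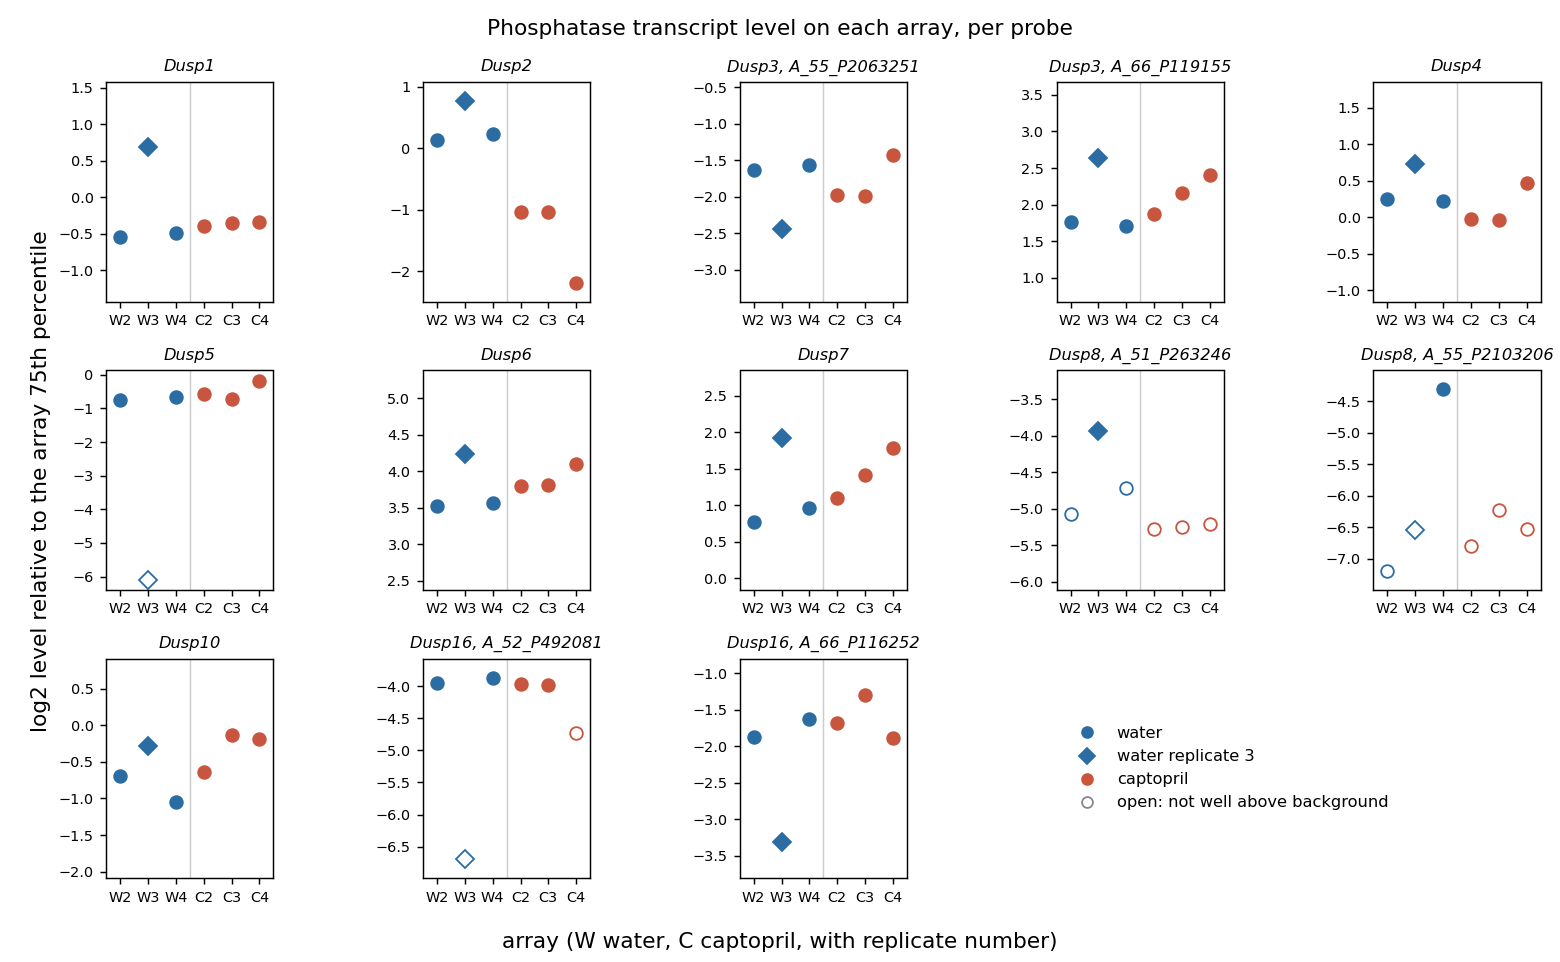
Level of each of the 13 member probes on each array, as log2 of the signal relative to the array's 75th percentile, with water arrays in blue, captopril arrays in red and water replicate 3 as a diamond. Open symbols were not well above background, and each panel has its own vertical axis, since levels of different probes cannot be compared. Dusp2 is the 1 measured member whose groups do not overlap over all 6 arrays, and Dusp5 drops to −6.09 on water replicate 3.

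Among the inducible nuclear phosphatases, Dusp2 (NM_010090, probe A_52_P399934, chromosome 2) encodes the enzyme also called PAC1, which was first known from activated lymphocytes and acts on ERK. Its log2 level, relative to the 75th percentile of each array, was 0.13, 0.77 and 0.23 in water. After captopril the levels were −1.04, −1.03 and −2.19. All captopril arrays lay below all water arrays. The gap between the groups was wider than the range within water but only about as wide as that within captopril, where replicate 4 lay lowest.

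The mean of Dusp2 was 0.38 ± 0.35 (SD, n = 3) in water and −1.42 ± 0.67 (n = 3) after captopril. The log2 fold change was −1.79 (SE 0.38, 95% interval −2.69 to −0.90, limma adjusted p = 0.455), a level 3.47-fold lower. All 3 captopril arrays were lower, and with the groups fully apart the exact two-sided permutation p is 0.1, the smallest that 3 arrays against 3 allow. By p it ranked 58 of the 14860 genes, and 0.162% of genes had a value as low or lower. Without water replicate 3 the value was −1.60 (SE 0.36, 95% interval −2.45 to −0.75, limma adjusted p = 0.090), 3.03-fold lower, with 0.121% of genes as low or lower. A further fit, chosen after the data had been seen, also left out captopril replicate 4, the lowest array for Dusp2. It set water replicates 2 and 4 against captopril replicates 2 and 3. The value there was −1.21 (SE 0.10, limma adjusted p = 0.067). Against water replicate 4 alone, the water array on the slide row that held all captopril arrays, the mean of the 3 captopril arrays stood at −1.65.

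In 1 of the 9 members, Dusp2, the groups did not overlap over 6 arrays, where 21.5% of all genes did not overlap and 11.4% did so with captopril lower. Markers of leukocytes, in which Dusp2 is best known, are given beside it. Their summed level (linear, relative to the 75th percentile) was 42.2 to 70.2 on the water arrays, highest on replicate 3. On the captopril arrays it was 47.6 to 60.6. Their median log2 fold change was 0.07 over 6 arrays and 0.02 without water replicate 3, with Ptprc at 1.21 over 6 arrays and 0.70 over 5. Cd3g, a T-cell receptor component, stood at −2.04 over 6 arrays (limma adjusted p = 0.455) and fell by 1.57 over 5 (limma adjusted p = 0.036). Ptprc, the pan-leukocyte marker, passed the background flag on only 1 water array. Germ cell markers had a median of −0.12 over 6 arrays and 0.13 without water replicate 3. Fibroblast feeder markers had negative values in 12 of 13 cases over 6 arrays (median −0.59). Without water replicate 3 they were negative in 10 of 13 (median −0.30). The summed fibroblast levels were 147, 247 and 136 in water, where 247 is water replicate 3. With captopril they were 135, 112 and 144, which overlaps water replicates 2 and 4. The part of these cells in the Dusp2 value was not tested, and in bulk RNA fewer cells of a type and less RNA per cell cannot be told apart.

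Dusp1 (NM_013642, chromosome 17), which encodes the stress-induced phosphatase MKP-1, did not follow Dusp2. It stood at −0.55, 0.69 and −0.49 in water and at −0.39, −0.35 and −0.34 after captopril. The captopril arrays were close together (SD 0.028), just above water replicates 2 and 4 and far below water replicate 3. The log2 fold change was therefore −0.25 (SE 0.36) over 6 arrays and 0.16 (SE 0.14, limma adjusted p = 0.540) over 5, of opposite sign.

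Dusp4 (NM_176933, chromosome 8), which encodes the nuclear phosphatase MKP-2, stood at 0.25, 0.73 and 0.22 in water. After captopril it stood at −0.02, −0.04 and 0.47. The groups overlapped, since captopril replicate 4 lay above water replicates 2 and 4. Its log2 fold change was −0.26 (SE 0.26) over 6 arrays and −0.10 (SE 0.20, 95% interval −0.56 to 0.37) over 5.

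Dusp5 (NM_001085390, chromosome 19), which encodes a nuclear phosphatase specific to ERK, was close to the same level on 5 arrays and nearly lost on the remaining one. Its level was −0.74 and −0.66 on water replicates 2 and 4, and −0.56, −0.73 and −0.17 on captopril replicates 2, 3 and 4. On water replicate 3 it was −6.09 and not well above background. The drop from the mean of the other water arrays is therefore known only as an approximate bound. It is at least 4.54 (log2) against the lowest level well above background on that array. The fitted log2 fold change of 2.01 (SE 1.37) over 6 arrays rests on that array, and without it the value was 0.21 (SE 0.20, 95% interval −0.25 to 0.68, limma adjusted p = 0.565).

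**Figure D2:**
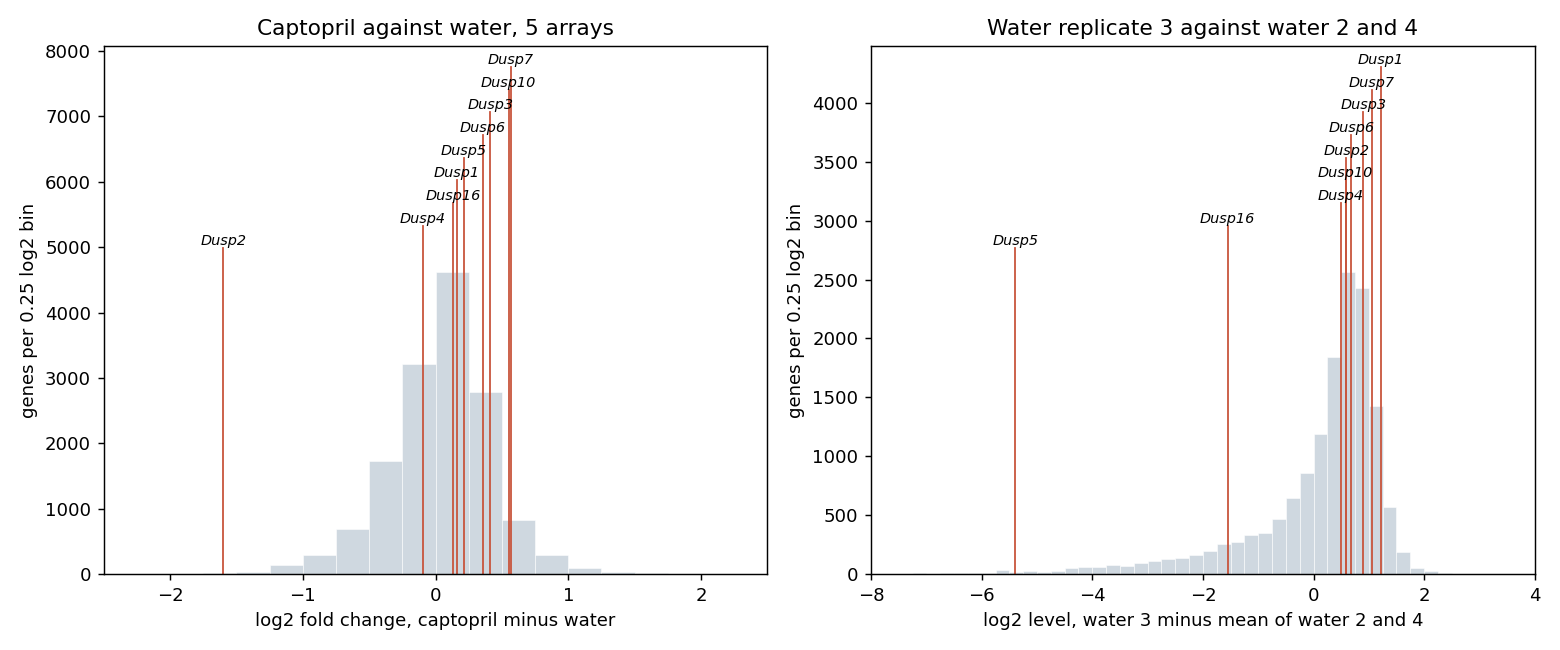
Distribution over the 14860 tested genes, in bins of 0.25, of the log2 fold change without water replicate 3 (left) and of the log2 difference between water replicate 3 and the mean of water replicates 2 and 4 (right), with the 9 measured members as red lines whose heights only separate the names. On the left Dusp2 lies at −1.60 and the other members between −0.10 and 0.57, and on the right Dusp5 lies at −5.39, from a level not well above background, and Dusp16 at −1.56.

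Dusp6 and Dusp7, which encode cytoplasmic ERK phosphatases, stood higher with captopril than on water replicates 2 and 4. Dusp6 (NM_026268, chromosome 10), which encodes MKP-3, the feedback phosphatase of fibroblast growth factor and ERK signalling, stood at 3.53, 4.23 and 3.56 in water. After captopril its levels were 3.79, 3.81 and 4.09. All captopril arrays lay between the low pair of water arrays and the high water replicate 3. The log2 fold change was 0.13 (SE 0.27) over 6 arrays and 0.36 (SE 0.16, 95% interval −0.02 to 0.73, limma adjusted p = 0.283) over 5.

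Dusp7 (NM_153459, chromosome 9), a close relative of Dusp6, showed the same order of arrays. Its level was 0.77, 1.92 and 0.96 in water and 1.096, 1.42 and 1.79 after captopril. Dusp7 had a log2 fold change of 0.22 (SE 0.36) over 6 arrays and 0.57 (SE 0.22, 95% interval 0.037 to 1.099, limma adjusted p = 0.238) over 5. For both genes captopril replicate 4, which shared its low overall signal with water replicate 3, was the highest captopril array. With both of these arrays left out, a fit chosen after the data had been seen, Dusp6 stood at 0.26 (SE 0.10) and Dusp7 at 0.39 (SE 0.16). Their limma adjusted p were 0.212 and 0.233.

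Among the phosphatases of the stress kinases, Dusp10 (NM_022019, chromosome 1), which encodes MKP-5, stood at −0.69, −0.29 and −1.04 in water. After captopril its levels were −0.64, −0.13 and −0.18. Without water replicate 3 the groups did not touch, although captopril replicate 2 was only just above water replicate 2. This gave a log2 fold change of 0.36 (SE 0.28) over 6 arrays and 0.55 (SE 0.21, 95% interval 0.05 to 1.05, limma adjusted p = 0.230) over 5.

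Dusp16 (NM_130447, chromosome 6), which encodes the JNK phosphatase MKP-7, had 2 probes that gave different values. On probe A_66_P116252 the level was −1.88, −3.31 and −1.63 in water and −1.68, −1.29 and −1.88 after captopril, so that 5 arrays overlapped and water replicate 3 was low. This probe gave a log2 fold change of 0.65 (SE 0.46) over 6 arrays and 0.14 (SE 0.21, limma adjusted p = 0.739) over 5. Probe A_52_P492081 was well above background on 4 of the 6 arrays, not on water replicate 3 or captopril replicate 4, and gave 0.61 over 6 arrays and −0.32 over 5.

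Dusp8 (NM_008748, chromosome 7), a phosphatase of JNK and p38 known mainly from brain and heart, was at the limit of detection. Probe A_51_P263246 was well above background on water replicate 3 alone and probe A_55_P2103206 on water replicate 4 alone, and neither on any captopril array. For the first, the water mean of −4.57 stood 1.47-fold above the captopril limit. That limit is the lowest signal well above background on each captopril array, or the probe's own signal where higher. The water mean includes water replicates 2 and 4, where the probe was not well above background, so 1.47-fold is no bound. It rests on the 1 water array that measured the probe. Without that array no bound could be given, and the other probe allowed none.

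Dusp3 (NM_028207, chromosome 11), which encodes the small phosphatase VHR, also had 2 probes that did not move together. On probe A_66_P119155 the level was 1.76, 2.64 and 1.71 in water and 1.87, 2.16 and 2.41 after captopril, so that as for Dusp6 and Dusp7 the captopril arrays lay between water replicates 2 and 4 and water replicate 3. The log2 fold change was 0.11 (SE 0.32) over 6 arrays and 0.41 (SE 0.19, 95% interval −0.04 to 0.86, limma adjusted p = 0.292) over 5. Probe A_55_P2063251 stood at −1.64, −2.44 and −1.57 in water and at −1.98, −1.99 and −1.43 with captopril, with values of 0.08 and −0.19, so that water replicate 3 was high on the first probe and low on the second.

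**Figure D3:**
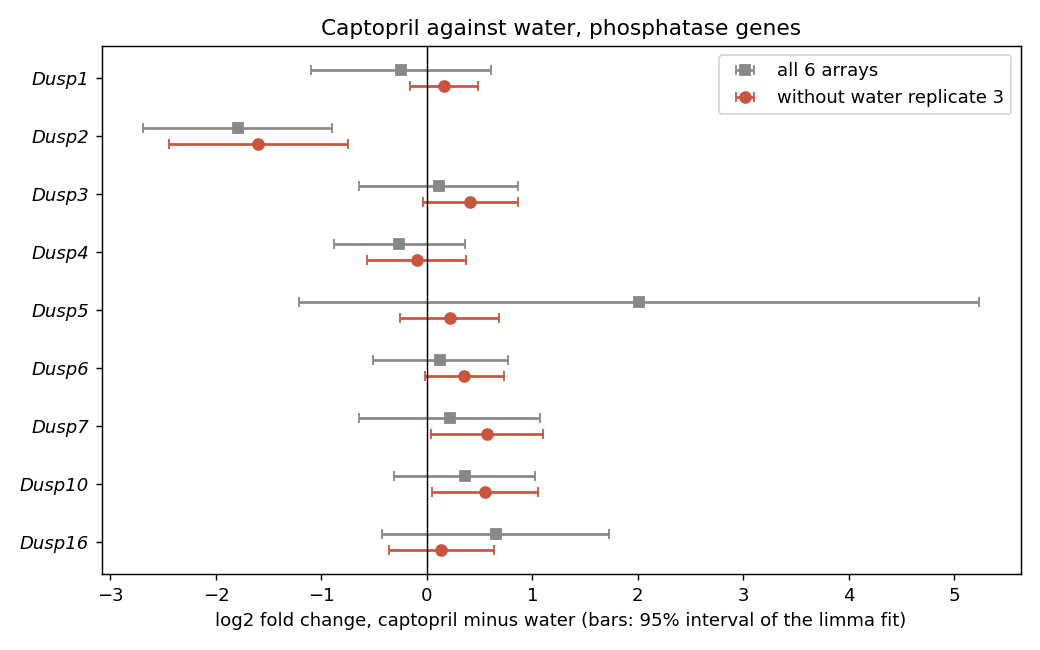
Log2 fold change after captopril for the 9 measured members, with the 95% interval of the limma fit, over all 6 arrays (grey squares) and without water replicate 3 (red circles). The interval of Dusp2 lies below 0 in both comparisons, and that of Dusp5 shrinks from −1.21 to 5.23 down to −0.25 to 0.68 when the array is left out.

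Across the members, water replicate 3 was the highest of the 6 arrays for 6 of the 9 genes and the lowest for 2, Dusp5 and Dusp16, while over all genes it was the highest for 54.8% and the lowest for 24.1%. Without it, the captopril arrays of 5 members (Dusp1, Dusp3, Dusp6, Dusp7 and Dusp10) all lay above both water arrays and those of Dusp2 all lay below. The groups thus did not overlap in 6 of 9 members, where 42.9% of all genes did not overlap and 27.2% did so with captopril higher. Signs of small values depended on the settings: Dusp1 is positive without water replicate 3, Dusp3 also turns with normexp background correction, and over 6 arrays Dusp3, Dusp6 and Dusp7 become negative, at −0.19, −0.17 and −0.09, when arrays are scaled by their median. That scaling moves the median of all genes from −0.03 to −0.33, and relative to the median of all genes these 3 members stand at 0.14, 0.16 and 0.25 under both scalings.

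The genes whose level followed that of Dusp2 most closely over the 6 arrays were Trim38, Swt1, Srp14, Esyt3 and Ndrg1, with Pearson correlations of 0.996, 0.994, 0.993, 0.993 and 0.993. These are the 5 highest of all genes tested, over 6 arrays that share a slide, and the values are a description. Ndrg1, a gene induced by hypoxia, had the largest difference of the 5, from 1.81, 2.62 and 2.06 on the water arrays to 0.86, 0.88 and 0.09 on the captopril arrays (log2 fold change −1.55, SE 0.33, limma adjusted p = 0.455, and −1.32, SE 0.27, without water replicate 3). The other 4 differed by −0.41 to −0.70 over 6 arrays and by −0.37 to −0.63 over 5.

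The other genes around these phosphatases were read from lists chosen by their role. Of 21 other genes of the wider dual-specificity family, 17 were measured and 0 passed in either comparison. Their median log2 fold change was −0.13 over 6 arrays, 8 of the 17 values being positive, and 0.02 when water replicate 3 was left out. Those with the smallest p were Styxl1, a catalytically inactive family member, at 0.79 (SE 0.23, limma adjusted p = 0.519), and the cofilin phosphatase gene Ssh1 at 0.62 (SE 0.23, limma adjusted p = 0.589). Without water replicate 3 they stood at 0.73 (SE 0.19) and 0.52 (SE 0.17). Dusp9, the third cytoplasmic ERK phosphatase, is named after its values were seen: it stood at 3.17, 2.18 and 3.04 in water and at 2.66, 2.61 and 1.80 with captopril. Its value was −0.44 (SE 0.37) over 6 arrays and −0.75 (SE 0.28, limma adjusted p = 0.217) over 5, below those of its relatives Dusp6 and Dusp7, a difference that was not tested.

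Of 9 phosphatases from other families that act on MAP kinases, all were measured and 0 passed in either comparison, with medians of −0.12 and 0.05. Ptpn5, which encodes a tyrosine phosphatase of ERK best known from neurons, passed the background flag on all 3 water arrays but on no captopril array. It entered the tests through its water arrays alone. Its level after captopril was at least 2.15-fold lower, and without water replicate 3 at least 1.497-fold lower, as approximate bounds. The fitted differences, which are no bounds, were −1.62 (limma adjusted p = 0.517) and −1.09 (limma adjusted p = 0.083). Ppm1a, a serine/threonine phosphatase, stood at 0.83 (SE 0.37, limma adjusted p = 0.612) over 6 arrays. Without water replicate 3, its lowest array at −0.20, it stood at 0.44 (SE 0.18, limma adjusted p = 0.257).

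The substrates, 13 MAP kinase genes, were all measured, with a median of 0.18 over 6 arrays and 0.12 over 5, and 0 passed in either comparison. Mapk15 passed the background flag on only 1 water array but on all 3 captopril arrays, so it entered the tests through captopril. Its fitted difference, which is no bound, was 1.32 (SE 0.31, limma adjusted p = 0.455). Mapk9, which encodes JNK2, stood at 1.04 ± 0.43 (SD, n = 3) in water and −0.02 ± 0.57 (n = 3) after captopril, a difference of −1.05 (SE 0.37, limma adjusted p = 0.588). Without water replicate 3 the fitted value of Mapk15, again no bound, was 1.06 (SE 0.21, limma adjusted p = 0.076). Mapk9 then stood at −0.80 (SE 0.31, limma adjusted p = 0.232). The 13 kinases upstream had medians of −0.01 and −0.06, and 0 passed in either comparison. Those with the smallest p were Map2k7 at 0.75 (SE 0.43) and Map2k4 at −0.42 (SE 0.25), the activators of JNK. Both values shrank without water replicate 3, to 0.25 (SE 0.17) for Map2k7 and −0.24 (SE 0.16) for Map2k4.

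Transcripts induced by ERK and feedback inhibitors of the pathway had a median of 0.10 over 6 arrays and 0.30 over 5, with 14 of 20 measured members positive in both, and 0 passed in either. Egr1, which encodes the factor of the EGR site shown above in the Dusp2 promoter, stood at 0.94, 1.18 and 0.98 in water and at 1.69, 1.70 and 2.11 after captopril. Its log2 fold change was 0.80 (SE 0.23, limma adjusted p = 0.517), and 0.87 (SE 0.18, limma adjusted p = 0.079) without water replicate 3. A link between Egr1 and the Dusp2 level was not tested. Phlda1 stood at −1.23 (SE 0.41, limma adjusted p = 0.587) over 6 arrays and at −0.75 (SE 0.16, limma adjusted p = 0.087) over 5. These values concern transcripts, and phosphatase or kinase activity was not measured.

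**Figure D4:**
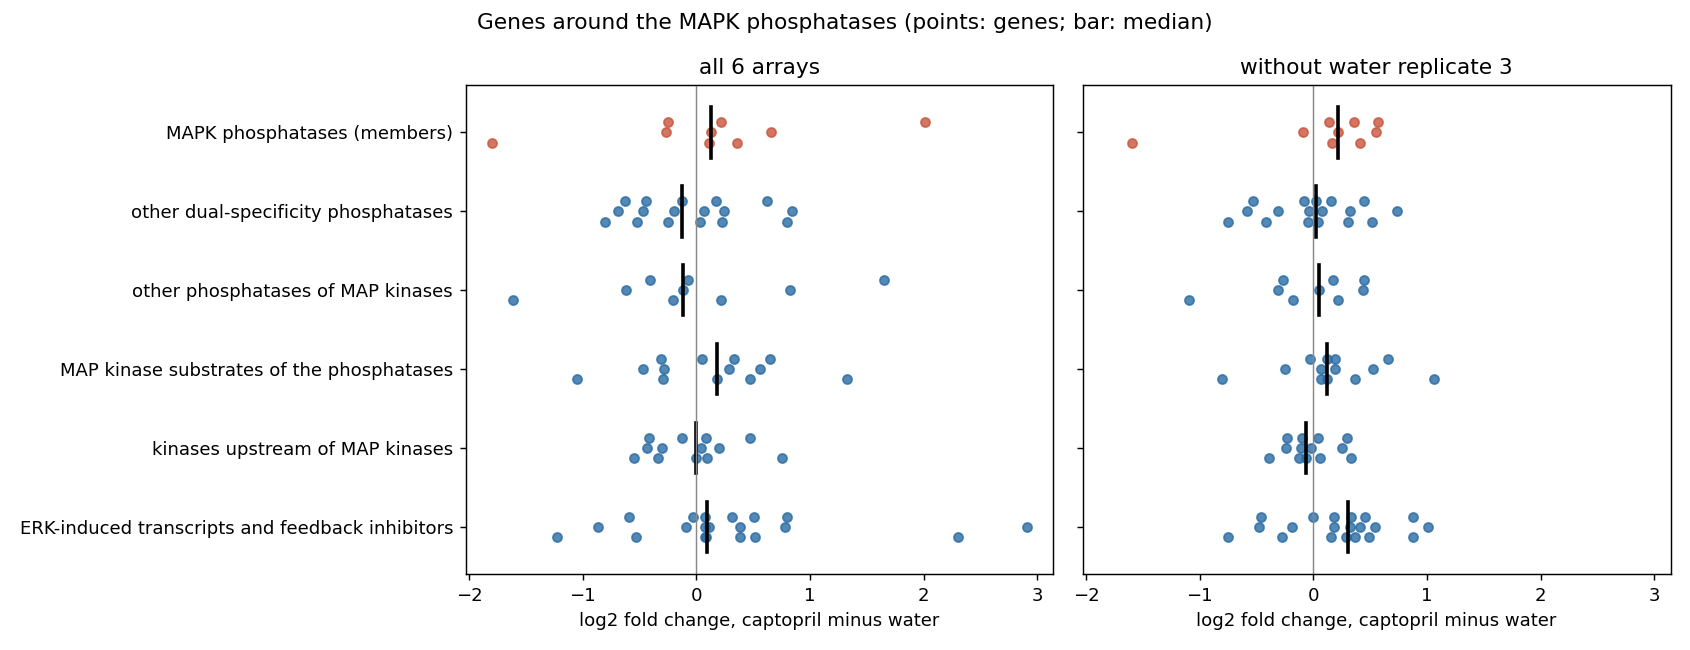
Log2 fold change after captopril for each measured gene, for the 9 phosphatase members (red) and 5 lists of genes around them (blue), over all 6 arrays (left) and without water replicate 3 (right), with the median of each list as a black bar. Dusp2 is the lowest point in both panels, and the medians of the lists lie between −0.13 and 0.18 on the left and between −0.06 and 0.30 on the right.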

How the data were processed

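The spot intensity values came from Agilent Feature Extraction. Its version is 10.7 per the submitters' processing notes but 11.5.1.1 in the headers. The deposited intensity values were already background-subtracted within each array. The authors' deposited log2 table had r = 1 with log2 of these signals on each array, all values within 0.01 of a constant difference, medians of −4.24 to −3.62 and a 75th percentile near 0. Fitting it was one of the alternatives.

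Each array's 75th percentile was subtracted from the log2 processed signals, without control spots or outlier flags, and spots of a probe were averaged. Probes were named through RefSeq accessions of GRCm38.p6 (26762 of 55681), and the array design's coordinates were not used. A gene was represented by its brightest probe that passed the background flag on 3 or more arrays and had a value on all 6. Bounds took the lowest level well above background on an array as its limit. Some probes above that level also failed the flag, so the bounds are approximate. The comparison used lmFit and eBayes of limma 3.58.1 (R 4.3.3), two-sided, with Benjamini-Hochberg adjustment over 14860 genes or 32380 probes and a threshold of 0.05, after a test on simulated data. Plots used Python 3.11.15 with matplotlib 3.10.9.

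The members and lists were chosen with earlier results of these data known. All members are named, with the 5 genes best correlated with the member of smallest p and the 2 genes of smallest p in each other list. The replicate numbers were not used to pair the arrays. Alternatives were background correction, scaling, filters, probe choice, the authors' table, blocks and left-out arrays.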

Additional observations from a re-analysis of the deposited data

How the results depend on the processing

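No member gene passed an adjusted p of 0.05 by limma under any of the 19 alternatives, and no member probe under the 18 that apply to single probes (not the mean of a gene's probes); 4 of the alternatives were chosen after the data had been seen. Dusp2 had a negative value in all of them, from −2.10 to −1.21, with adjusted p of 0.067 to 1.00. Some of them could not move it. Its 1 probe was well above background on all 6 arrays, so the filters and the mean of a gene's probes return the same value. The replicate block does so too. Leaving out 1 array at a time moved Dusp2 between −1.99 and −1.41. It moved Dusp5 between 0.21 and 2.93, where the low value is that without water replicate 3. The median of the members ran from −0.01 to 0.25 in those fits. With scaling by the array median over 6 arrays it was −0.17, with 3 positive and 6 negative values, beside −0.33 over all genes. The number of genes called among all genes was 0 over 6 arrays (1224 at an unadjusted p under 0.05) and 0 to 92 with 1 array left out, where 92 is without water replicate 3. Without that array it was 39 with scaling by the array median and 92 with normexp, and 0 with quantile normalization.

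Signs changed for 4 members, none of them past the test. Dusp1 was 0.13 with the slide row as a block and ran from −0.462 to 0.160 with 1 array left out, the high value being that without water replicate 3. Without that array it was also 0.14 with quantile normalization, 0.0277 with the array median and 0.128 with normexp, and 0.15 with captopril replicate 4 left out too. Dusp3 was −0.00206 with normexp and −0.19 with the array median, and with 1 array left out it ran from −0.0517 to 0.412. Dusp6 was −0.17 and Dusp7 −0.0854 with the array median, and Dusp7 ran from −0.00850 to 0.568 with 1 array left out. The cause was not tested, except that the median scaling shifts all genes alike.

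A replicate block cannot change the fold changes here, since each number occurs once in each group, and only SE and p can move. The value of Dusp2 is thus again −1.79 (limma adjusted p = 0.387) and the median of the members again 0.13. With this block 0 genes were called. Deviations of arrays with the same number correlated at −0.02, 0.02 and −0.19. With 3 arrays in a group these values cannot exclude a pairing, and the number is not used as one. With the slide row as a block Dusp2 was −1.65. This repeats the value against water replicate 4 alone, the one water array on the row of the captopril arrays. The number of arrays limits the precision, and Dusp8 lies at the detection limit.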

Other observations

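The list of ERK-induced transcripts and feedback inhibitors had 20 measured genes. On water replicate 3, 13 of them stood above the mean of water replicates 2 and 4, beside 69.3% of all genes tested. Among the 13 was Fos, at 1.63 against 0.50 and 0.48. Junb and Ier2, named here for their values, were the 2 of the 20 that lay under the lowest level well above background on that array, as Dusp5 did. Junb stood at −3.14 and −3.28 on water replicates 2 and 4, and its drop on water replicate 3 was at least 2.03 (log2). Ier2 stood at 0.36 and 0.26, and its drop was at least 5.55 (log2). Both drops are approximate bounds. Over all genes tested, 753 (5.07%) were below background on water replicate 3 alone. That count uses another rule, the background flag failed on that array and passed on every other array. The share of all genes under the rule used for Junb and Ier2 was not counted. The 2 of 20 therefore cannot be set against all genes, and nothing particular to this list is read from it. Without that array the log2 fold changes of Junb and Ier2 were 1.01 (SE 0.18, limma adjusted p = 0.064) and 0.49 (SE 0.14, limma adjusted p = 0.150).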
